A study of Equus caballus with 8 samples.

Results

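The receptors, SMAD proteins and feedback regulators that carry and restrain the TGF-β signal were examined in equine mesenchymal stem cells from bone marrow (BM-MSCs) grown with or without TGF-β2. The genes were fixed by name as TGFBR1, TGFBR2, TGFBR3, SMAD2, SMAD3, SMAD4, SMAD7, SKI, SKIL and SMURF2, and all 10 had a row among the 15266 named genes. BM-MSCs, the plastic-adherent stromal cells of sternal marrow, were obtained from 4 adult Thoroughbred or Thoroughbred-cross horses labelled D, J, L and W, and the marrow of each horse was divided between 1 untreated culture and 1 culture with 1 ng/ml human recombinant TGF-β2. Both cultures of a horse were kept in low glucose DMEM with fetal bovine serum and, as the study's methods state, basic fibroblast growth factor. The labels place the exposure from isolation up to passage 3 or 4, so the treated cells were expanded in the cytokine, whereas the methods give it as 3 passages. The 4 horses are separate donors and served as replicates. Poly(A)-selected RNA of 8 libraries was sequenced, and the values below are normalized counts, that is, each gene's reads after division by the size factor of its library.

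TGF-β ligands bind the type II receptor TGFBR2, a kinase that activates the type I receptor TGFBR1. TGFBR3 (betaglycan) is a co-receptor without kinase activity that presents ligand, in particular TGF-β2, which binds TGFBR2 weakly by itself. The active type I receptor phosphorylates SMAD2 and SMAD3, which join SMAD4 and enter the nucleus to regulate genes. SMAD7 blocks the receptor and brings the ubiquitin ligase SMURF2 to it, while SKI and SKIL (SnoN) are co-repressors that bind the SMAD complex and hold its target genes off. SMAD7 and SKIL are well-known early target genes of the pathway and so belong to its negative feedback.

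The libraries held 39184554 to 57228675 counted reads. The genes FN1, COL1A1 and COL1A2 together took 0.881% to 6.27% of the reads of untreated libraries and 10.3% to 14.4% of treated ones. The untreated library of horse J was the deepest and had the lowest share of these 3 genes. Of the stromal markers listed, 5 of 6 had a row, and their summed level was 151054 to 346896 normalized counts in untreated and 163790 to 265136 in treated libraries. Of the 5, THY1 (log2 fold change -2.21) and PDGFRB (-0.71) were lower and ITGB1 (0.91) was higher after treatment in the test described below, and the other 2 did not pass it. Of 8 haematopoietic markers 7 had a row, with a summed level of 669 to 2944 in untreated and 531 to 871 in treated libraries, highest in the untreated library of horse J. CD3E was listed at 0 in all treated libraries and in the untreated libraries of horses D and L, and SPI1 in the treated library of horse D. Of 6 endothelial markers CDH5 and KDR had a row, and together they reached 7.10 to 26.3 normalized counts in untreated and 30.0 to 55.7 in treated libraries. In every horse the haematopoietic sum was lower and the endothelial sum higher in the treated library, and their part in the results below was not tested. In bulk RNA fewer cells expressing a gene and less RNA per cell cannot be told apart. With horse J left out, the same number of the 10 genes was called as with all horses, 4.

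Untreated and treated cells were compared over 14907 genes with limma on log2(normalized count + 1), with the horse as a block and Benjamini-Hochberg adjustment over all genes tested. A gene passed the test at an adjusted p under 0.05, and it was called differentially expressed when the absolute log2 fold change (log2FC, treated over untreated) was also over 1, the thresholds of the study. TGFBR3, SMAD3 and TGFBR2 were called lower and SKIL was called higher, so that 4 of the 10 genes were called, against 14.1% of all genes tested. The share of all genes called higher was 6.83%, and the share called lower was 7.31%. SMAD2 also fell and SMURF2 also rose at less than a 2-fold change. Thus 6 of the 10 genes passed the test, 4 of them lower and 2 higher, where 30.9% of all genes passed, 15.3% lower and 15.7% higher. TGFBR1, SMAD4, SMAD7 and SKI did not pass. The treated and untreated libraries did not overlap for 7 of the 10 genes, which held for 27.8% of all genes tested. The median log2FC of the 10 genes was -0.14, and that of all genes tested was 0.01. Without a term for the horse, where 11.5% of all genes were called, the same counts of 4 genes called and 6 passing were obtained.

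**Figure D1:**
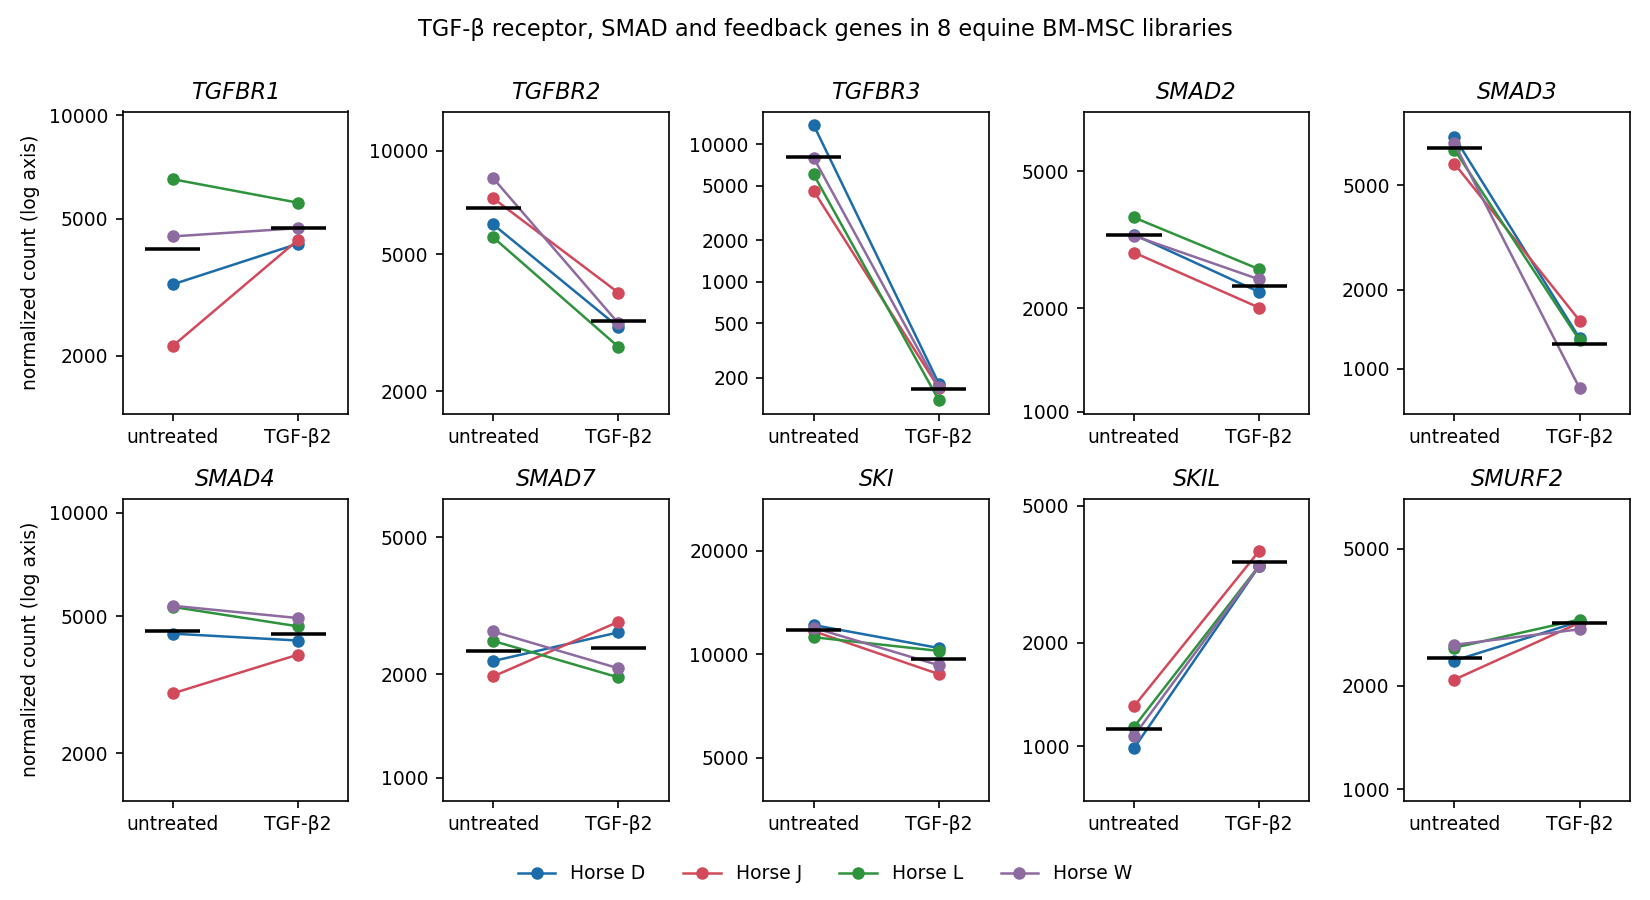
Normalized counts (log axis) of the 10 genes in BM-MSCs without and with TGF-β2. Points joined by a line are the 2 libraries of a horse and black bars are group means (n = 4). Every line goes down for TGFBR2, TGFBR3, SMAD2, SMAD3 and SKI and up for SKIL and SMURF2, while the lines of TGFBR1, SMAD4 and SMAD7 go both ways.

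TGFBR3 showed the largest change of the 10 genes. The untreated libraries of horses D, J, L and W held 13878, 4594, 6059 and 8005 normalized counts of TGFBR3. The treated libraries held 181, 168, 137 and 171. Every treated library thus lay far below every untreated one, and the treated libraries differed little from each other. The mean fell from 8134 ± 4076 (SD, n = 4) to 164 ± 19.1 normalized counts, which is 49.6-fold lower. The log2FC was -5.50 (standard error 0.24), and the limma-adjusted p was 7.87e-04. In single horses the log2 change ran from -6.25 in horse D to -4.76 in horse J. Among all 14907 genes tested TGFBR3 ranked 22 in the order of log2FC from the lowest. The co-receptor was still detected after treatment, with at least 119 reads in each treated library.

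TGFBR2, the type II receptor, had a mean that was 2.14-fold lower after treatment. Its untreated libraries held 6102, 7269, 5595 and 8314 normalized counts in horses D, J, L and W, and its treated libraries held 3068, 3862, 2687 and 3145. The highest treated library, that of horse J, lay below the lowest untreated one, that of horse L. The means were 6820 ± 1218 and 3190.4 ± 490.3 (SD, n = 4). The log2FC was -1.09 (standard error 0.11, 95% interval -1.35 to -0.83), with a limma-adjusted p of 0.00293. The change was close to the fold threshold, and with horse W left out the log2FC was -0.99, so that TGFBR2 still passed the test (limma-adjusted p 0.0191) but was no longer called.

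TGFBR1, the type I receptor, did not pass the test. It had 3223, 2134, 6516 and 4443 normalized counts in untreated and 4231, 4342, 5566 and 4694 in treated libraries of horses D, J, L and W. The untreated libraries spread over a 3.05-fold range, from horse J to horse L, and the treated libraries lay within that range. The log2 change was 1.02 in horse J, 0.39 in horse D, 0.08 in horse W and -0.23 in horse L. The fitted log2FC was 0.32 with a 95% interval of -0.20 to 0.83, and the limma-adjusted p was 0.290. A change of up to 0.83 on the log2 scale therefore lay within the interval.

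SMAD3 had the largest change of the SMAD genes. Untreated libraries of horses D, J, L and W held 7629, 6045, 6831 and 7213 normalized counts of SMAD3, and treated libraries held 1305, 1526, 1282 and 843. The groups lay well apart, and the untreated libraries were nearly level, with a coefficient of variation of 9.72%. The mean fell from 6930 ± 674 to 1239 ± 286 (SD, n = 4), which is 5.59-fold lower. The log2FC was -2.51 (standard error 0.18), with a limma-adjusted p of 0.00158, and the decrease in single horses ran from -3.09 in horse W to -1.99 in horse J.

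SMAD2, which is activated by the same receptor, fell much less. Its values were 3271, 2901, 3668 and 3246 in untreated and 2226, 2005, 2594 and 2423 in treated libraries of horses D, J, L and W. No treated library reached an untreated one, and the decrease was even between horses, from -0.55 to -0.42 on the log2 scale. The log2FC was -0.502 with a standard error of 0.07 and a limma-adjusted p of 0.00791. Without horse D the limma-adjusted p was 0.0525, with a log2FC of -0.48.

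SMAD4, the common partner of the receptor-activated SMADs, did not pass the test. It had 4451, 2984, 5326 and 5365 normalized counts in untreated and 4251, 3869, 4674 and 4941 in treated libraries of horses D, J, L and W. The untreated library of horse J was the lowest of the 8, and the groups overlapped. The log2 change was 0.37 in horse J and between -0.19 and -0.07 in the other horses. The fitted change was 3.43e-04, with a 95% interval of -0.29 to 0.29 and a limma-adjusted p of 0.998. Without horse J the log2FC was -0.12 (limma-adjusted p 0.266).

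**Figure D2:**
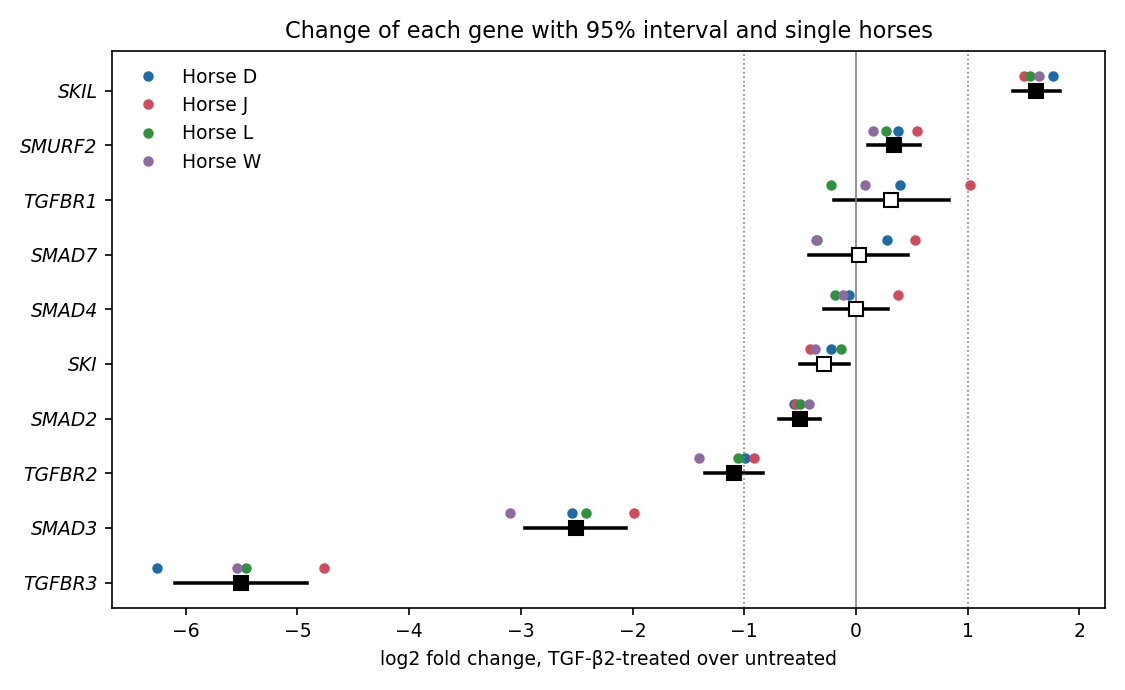
Log2 fold change (treated over untreated, x axis) of the 10 genes from limma with the horse as a block. Squares are the fitted values, filled at an adjusted p under 0.05, lines are 95% intervals, coloured points above them are single horses and dotted lines mark the threshold of 1. TGFBR3, SMAD3, TGFBR2 and SKIL lie beyond the threshold, and the intervals of TGFBR1, SMAD4 and SMAD7 include 0.

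Among the inhibitors, SKIL rose and SMAD7 did not pass the test. SKIL had 988, 1307, 1138 and 1072 normalized counts in untreated and 3346, 3701, 3355 and 3343 in treated libraries of horses D, J, L and W. Every treated library lay above every untreated one, and 3 of the treated values were nearly identical, with horse J higher. The mean rose from 1126 ± 136 to 3436 ± 177 (SD, n = 4), 3.05-fold. The log2FC was 1.61 (standard error 0.08, 95% interval 1.41 to 1.82), and the limma-adjusted p was 0.00100. In single horses it was lowest in horse J, at 1.5, and highest in horse D, at 1.76.

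SMAD7 had 2185, 1971, 2500 and 2663 normalized counts in untreated and 2648, 2842, 1958 and 2081 in treated libraries of horses D, J, L and W. The horses split by direction, since SMAD7 was higher after treatment in D and J and lower in L and W, by 0.28, 0.53, -0.35 and -0.36 on the log2 scale. The groups overlapped fully. The fitted log2FC was 0.02 with a 95% interval of -0.42 to 0.47, and the limma-adjusted p was 0.931.

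SKI, the homologue of SKIL, had 12147, 11662, 11198 and 11930 normalized counts in untreated and 10416, 8744, 10214 and 9278 in treated libraries of horses D, J, L and W. All treated libraries lay below all untreated ones, by 0.13 to 0.42 on the log2 scale, but the gene missed the threshold of the test. Its log2FC was -0.28, with a standard error of 0.09 and a limma-adjusted p of 0.0602. DESeq2 with the horse as a term, on the recovered reads, gave a log2FC of -0.29 and an adjusted p of 0.0196.

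SMURF2, the ubiquitin ligase partner of SMAD7, had 2367, 2084, 2580 and 2631 normalized counts in untreated and 3077, 3051, 3117 and 2919 in treated libraries of horses D, J, L and W. No untreated library reached a treated one, and the treated libraries were within 1.07-fold of each other. The log2FC was 0.34 (standard error 0.09), and the limma-adjusted p was 0.0443. SMURF2 no longer passed with any single horse left out, where the limma-adjusted p ran from 0.0640 to 0.160, and under total scaling the log2FC was 0.03.

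Scaling affected the small changes. With equal totals for all libraries (total scaling), the median of all genes tested was at -0.30 on the log2 scale. TGFBR3, SMAD3, TGFBR2 and SKIL were called under that scaling too, with log2FCs of -5.82, -2.82, -1.40 and 1.30. SMAD4 and SMAD7 had log2FCs of -0.31 and -0.29 under total scaling, close to the median gene, and neither passed the test. SKI passed it, with -0.60 and a limma-adjusted p of 0.00588.

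The horses differed more in some of these genes than in others. In untreated cells the standard deviation between horses, on the log2 scale, was 0.68 for TGFBR1 and 0.68 for TGFBR3, against a median of 0.33 over all genes tested. In treated cells it was 0.18 for each of them, where the median gene had 0.23. SKI and SMAD2 differed least between untreated horses, with standard deviations of 0.05 and 0.14. SMURF2 and SKIL differed least between treated horses, with 0.04 and 0.07. SMAD3 went the other way, from 0.14 in untreated to 0.37 in treated cells, where horse W was lowest. SMAD7 (0.19 and 0.26), SKI (0.05 and 0.12) and SMAD2 (0.14 and 0.16) also had the larger spread in treated cells. These spreads rest on 4 horses in each group and were not tested.

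**Figure D3:**
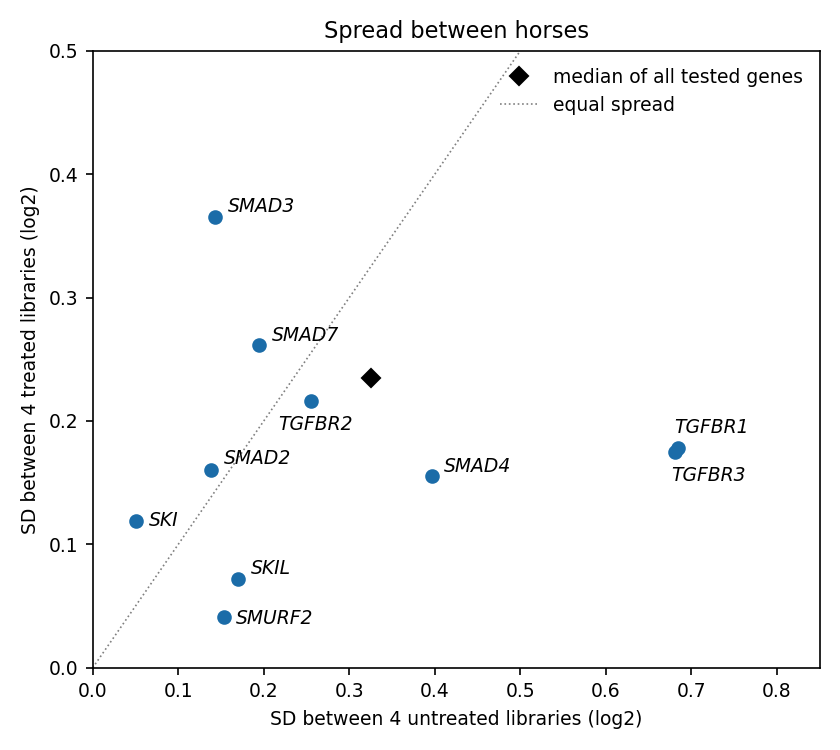
Standard deviation of log2(normalized count + 1) between the 4 untreated libraries (x axis) and between the 4 treated libraries (y axis) for each of the 10 genes (circles) and for the median of all genes tested (diamond). TGFBR1 and TGFBR3 lie at 0.68 on the x axis and 0.18 on the y axis, and SMAD3, SMAD7, SKI and SMAD2 lie above the line of equal spread.

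Ratios of related genes within a library do not depend on library scaling, and the length of a gene drops out when the same ratio is compared between libraries. The log2 ratio of SMAD3 to SMAD2 was 1.22, 1.06, 0.90 and 1.15 in untreated and -0.77, -0.39, -1.02 and -1.52 in treated libraries of horses D, J, L and W. It was lower in all treated than in all untreated libraries. The mean change within horses was -2.01 ± 0.50 (SD, n = 4), so that the ratio was 4.02-fold lower.

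The log2 ratio of TGFBR1 to TGFBR2 changed from -0.84 ± 0.82 to 0.57 ± 0.37 (SD, n = 4). It rose in every horse, by 1.38, 1.94, 0.83 and 1.48 in D, J, L and W, although the untreated library of horse L (0.22) lay above the treated library of horse J (0.17). The mean change was 1.41 ± 0.45, or 2.65-fold.

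The log2 ratio of SKIL to SKI rose from -3.39 ± 0.20 to -1.49 ± 0.18 (SD, n = 4). It differed little between horses, being lowest in L (1.69), with a mean of 1.90 ± 0.14. For all 3 ratios the exact two-sided sign-flip permutation test over 4 horses gave p = 0.125 (adjusted p = 0.125 over the 3 ratios), which is the smallest p that 4 pairs allow. The exact permutation test of 4 against 4 libraries, without the pairing, gave p = 0.0286 for SMAD3 to SMAD2 and for SKIL to SKI (adjusted p = 0.0429) and p = 0.0571 for TGFBR1 to TGFBR2. The value 0.0286 is the smallest p that its 70 splits allow, and the test treats the 2 libraries of a horse as independent.

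**Figure D4:**
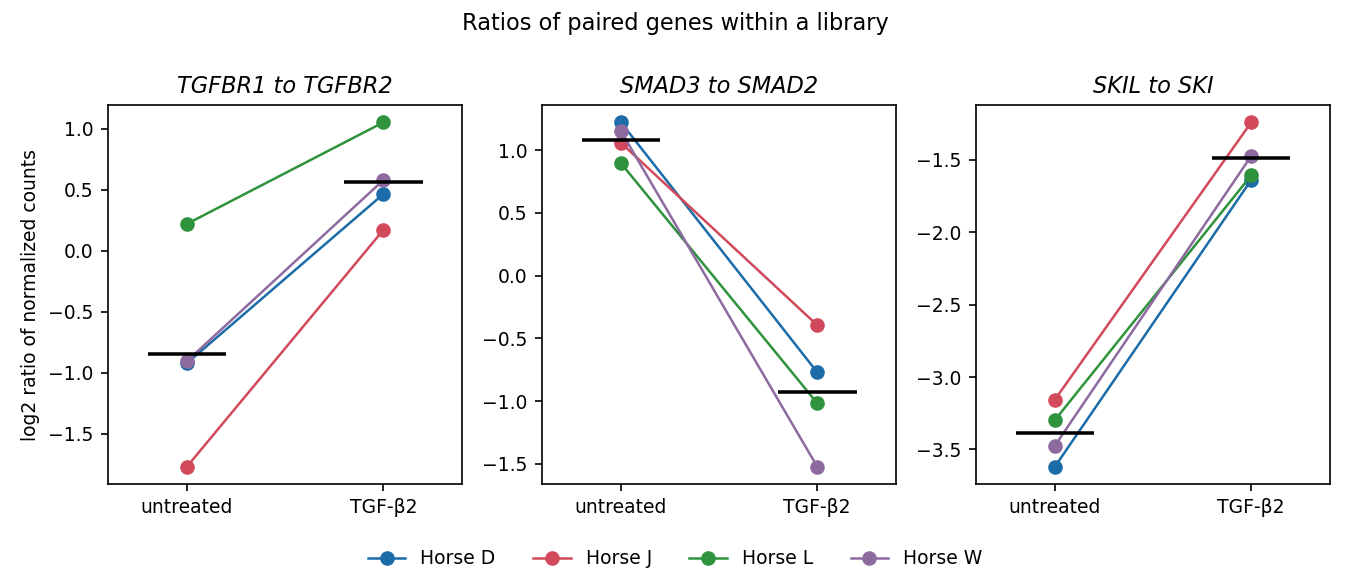
Log2 ratio of normalized counts within each library for 3 gene pairs, with the 2 libraries of a horse joined by a line and group means as black bars (n = 4). The ratio of SMAD3 to SMAD2 goes down in every horse, and the ratios of TGFBR1 to TGFBR2 and of SKIL to SKI rise in every horse.

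Further genes of the pathway were counted by role. Of 69 genes tested in 7 lists, 13 were called higher and 5 lower (26.1%), beside 6.83% and 7.31% of all genes. The test was passed by 28 of the 69, where 30.9% of all genes passed. The median log2FC of the 69 genes was -0.02. The calls were unevenly spread, with 11 of the 18 among the 17 target genes tested. In the other lists, 1 of 10 receptors, 0 of 4 SMAD genes and 2 of 15 inhibitors were called. So were 1 of 16 SMAD helpers, 1 of 3 ligands and 2 of 4 ID genes, beside 14.1% of all genes.

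Of 10 other receptors and co-receptors tested, 1 was called, lower, and the median log2FC was -0.22. The gene called was ACVRL1 (ALK1), an alternative type I receptor for TGF-β, which fell from 293 ± 119 to 52.9 ± 23.8 normalized counts (SD, n = 4). Its log2FC was -2.45, with a standard error of 0.20 and a limma-adjusted p of 0.00205. ENG (endoglin), a co-receptor that works with ACVRL1, also passed the test, with a log2FC of -0.42 and a limma-adjusted p of 0.0409. The limma-adjusted p of ENG was 0.0695 in the fit with no block, and it was 0.115, 0.0959 and 0.126 without horse D, L or W. The BMP receptors BMPR1B and BMPR2 had log2FCs of 1.56 and 0.28 and limma-adjusted p of 0.0582 and 0.120. DESeq2 with a horse term called BMPR1B higher (log2FC 1.55, adjusted p 0.0106), so that it called 2 of these receptors. In no other setting did BMPR1B pass, with an adjusted p of 0.0775 from edgeR with the horse and 0.456 from DESeq2 without it. The untreated libraries of BMPR1B ran from 5.39 to 185 normalized counts, and its groups overlapped.

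Of the 4 other SMAD genes none was called by limma on the deposited normalized counts of all horses, and 2 passed the test, both lower. At an unadjusted p under 0.05 there were 2 as well, and neither edgeR nor DESeq2, each with a horse term, called any. SMAD6, the inhibitory SMAD that acts mainly on BMP signals, fell from 2712 ± 410.2 to 1407 ± 120 normalized counts (SD, n = 4). The groups did not overlap, and the log2FC was -0.94 with a limma-adjusted p of 0.00390. This was close to the fold threshold. SMAD6 was called lower by limma under total scaling (log2FC -1.25, adjusted p 0.00130) and without horse W (-1.005, 0.0257). SMAD1, which is activated by BMP receptors, had a log2FC of -0.45 and a limma-adjusted p of 0.0387, or 0.0934 without the block and 0.0553 to 0.126 with any single horse left out. SMAD9, activated in the same way, had -0.15 and did not pass.

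Of 15 other inhibitors and feedback genes tested, 2 were called, both higher. The test was passed by 3 that were higher and 2 that were lower. LDLRAD4 and PMEPA1 encode membrane proteins that bind SMAD2 and SMAD3 and keep them from the receptor. The mean of LDLRAD4 rose from 154 ± 11.1 to 1392 ± 184 (SD, n = 4), with a log2FC of 3.16 (standard error 0.11) and a limma-adjusted p of 6.51e-04. The increase in single horses ran only from 3.00 to 3.23. PMEPA1 rose from 1382 ± 1036 to 8663 ± 1460.5, a log2FC of 3.06 that ran from 1.80 to 5.23 between horses, with a limma-adjusted p of 0.0143. The largest increase of PMEPA1 was in horse J, whose untreated library held 275 normalized counts, and without horse W the limma-adjusted p was 0.0738. VASN (log2FC -0.98, limma-adjusted p 0.00218) and WWP1 (-0.59, 0.0108) passed the test as lower. FKBP1A (0.59, 0.0113) passed it as higher without being called. Without the block the limma-adjusted p of WWP1 was 0.0659, and under total scaling that of FKBP1A was 0.0580. VASN, WWP1 and FKBP1A are named here after their values were seen. The median log2FC of this list was 0.12.

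Of 16 SMAD helpers and positive regulators tested, 1 was called, lower, with a median log2FC of -0.003. DAB2, an adaptor that links the receptors to SMAD proteins, went from 4481 ± 863 down to 1947 ± 714 normalized counts (SD, n = 4). Its log2FC was -1.26 (limma-adjusted p 0.0179). The adjusted p of DAB2 from limma was 0.0702 without horse D and 0.0616 without horse W, and without horse J its log2FC was -0.93, under the fold threshold. The SUMO ligase PIAS1 passed the test with -0.42 and the deubiquitinase UCHL5 with 0.57 on the log2 scale. Neither passed without horse D, L or W, where the limma-adjusted p was 0.0532 to 0.0941 for PIAS1 and 0.0966 to 0.159 for UCHL5. UCHL5 also did not pass with no block (limma-adjusted p 0.0646), with no trend (0.0722) or under total scaling, where its log2FC was 0.26. The endosomal SMAD anchor ZFYVE16, with a log2FC of 0.40, did not pass (limma-adjusted p 0.0646), but did without horse L (0.0306). ZFYVE16 also passed in DESeq2 with a horse term (adjusted p 0.0386).

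Of the 3 ligands, TGFB2 was called higher, with a log2FC of 2.81 and a limma-adjusted p of 0.00562. TGFB1 did not pass, with changes of 0.04 to 1.596 on the log2 scale in single horses and a limma-adjusted p of 0.0968. DESeq2 with a horse term gave TGFB1 a log2FC of 0.71 and an adjusted p of 0.0443, and edgeR with the horse gave 0.105. TGFB3 averaged 15294 ± 7895 normalized counts without and 9236 ± 1935 with TGF-β2 (SD, n = 4) and changed in both directions between horses, from -1.68 to 1.18, with a limma-adjusted p of 0.412. Without horse J the log2FC of TGFB3 was -1.09 and the limma-adjusted p 0.0140.

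Of 17 target genes tested, 10 were called higher and 1 lower, beside 6.83% and 7.31% of all genes. The median log2FC of the 17 genes was 1.57. The test was passed by 11 that were higher and 2 that were lower, and 4 did not pass. The list was chosen with earlier results of these data known, so these counts are only a description. The smooth-muscle genes CNN1 and ACTA2 rose by 3.10 and 2.27 on the log2 scale. IL11, FN1 and COL1A1 were also called higher, with log2FCs of 3.98, 3.302 and 2.496. COL1A1 did not pass without horse D (limma-adjusted p 0.0902) or horse W (0.0718). The gene called lower was JUNB, an AP-1 transcription factor that is named here after its value was seen. JUNB fell from 10063 ± 1273 to 3697 ± 928 normalized counts (SD, n = 4), with a limma-adjusted p of 0.00605. Of the 4 ID genes, the target genes of BMP-type SMADs that restrain differentiation, 2 were called, both lower. ID2 and ID4 fell by 1.48 and 1.44 on the log2 scale, with limma-adjusted p of 0.00380 and 0.00619.

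**Figure D5:**
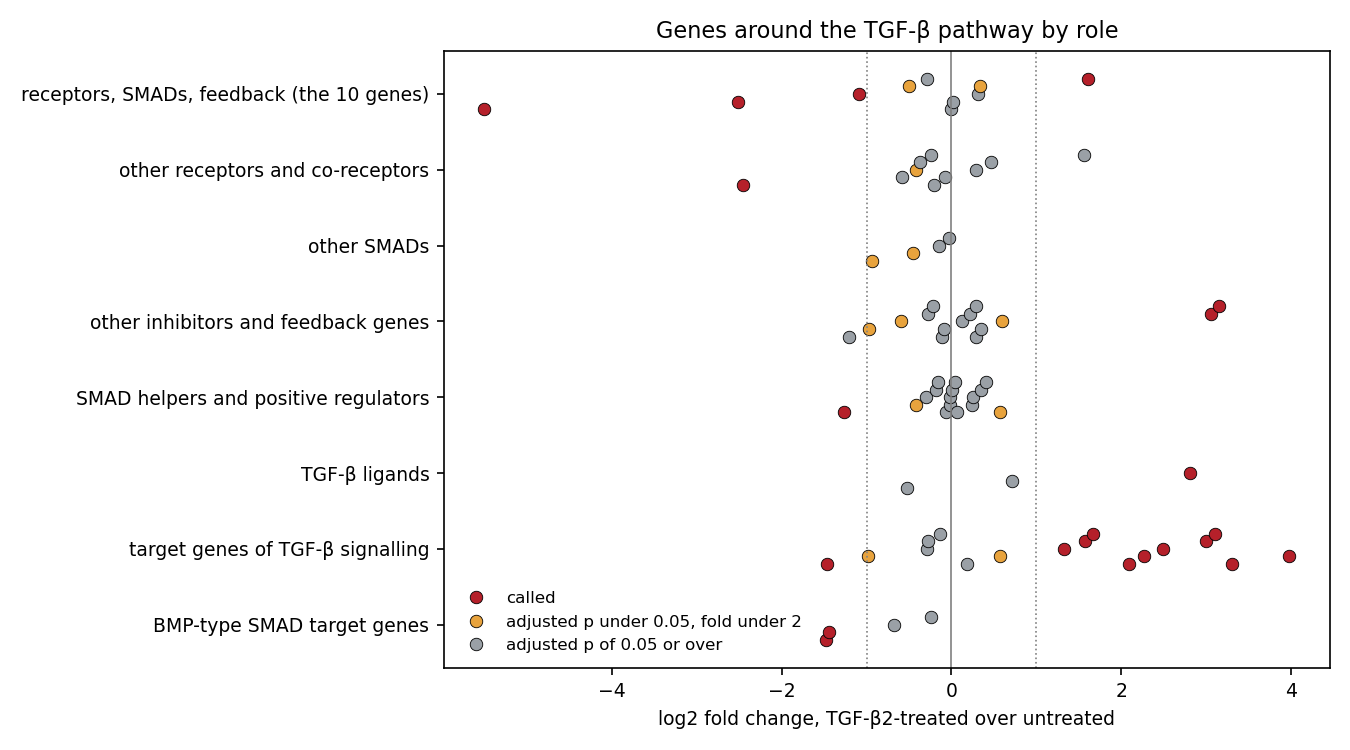
Log2 fold change (treated over untreated, x axis) of every tested gene of the pathway lists, 1 point a gene, with the 10 receptor, SMAD and feedback genes in the top row. Colours give the result of limma with the horse as a block, and dotted lines mark the threshold of 1. The called genes on the right are mostly target genes, with LDLRAD4 and PMEPA1 among the inhibitors and SKIL in the top row.

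The genes whose values followed those of TGFBR3, SMAD3 and SKIL most closely were taken by Pearson's correlation of log2(normalized count + 1) over the 8 libraries. These correlations are a description, since the libraries form 2 groups that differ in all of these genes and share their size factors. For TGFBR3 they were RXRA (r = 0.997), PGGHG (0.996) and NDNF (0.995), which had log2FCs of -1.06, -2.28 and -2.36. For SMAD3 they were XG (r = 0.997), TXNIP (0.992) and PLAC9 (0.991), with log2FCs of -4.66, -6.46 and -1.48. For SKIL they were CSRNP1 (r = 0.990), INO80C (0.990) and ITGAE (0.989), with log2FCs of 1.91, 1.46 and 4.10. In all, 253 genes had a correlation over 0.95 with TGFBR3, 205 with SMAD3 and 205 with SKIL.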

How the data were processed

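RNA-seq of 4 untreated and 4 TGF-β2-treated BM-MSC cultures was used. The authors used Trimmomatic 0.36 for trimming and STAR 2.5.2b for alignment to EquCab 3.0, counted unique hits per gene with featureCounts (Subread 1.5.2) and deposited normalized counts, a signal in which the reads of a gene are divided by its library's size factor. The annotation and strand setting are not given in the sources used here. One step per library was found of which 100% of values were whole multiples within 0.02 reads, and reads were recovered from it. The row without a gene name, 0.0281% to 0.0531% of reads, was left out.

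Genes reaching 10 normalized counts in 4 or more libraries were tested with limma 3.58.1 in R 4.3.3 (lmFit, eBayes with trend) on log2(normalized count + 1), which understates changes of low genes. The horse was a block because both cultures came from the marrow of 1 horse. Deviations from the group means were shared within horses (mean correlation across genes 0.480, range 0.386 to 0.609). The mean between horses, -0.159, follows from subtracting the group means and is not a separate comparison. Alternatives were pseudocounts, filters, scalings, no trend, no block, DESeq2 1.42.0 and edgeR 4.0.16 on recovered reads, a stricter threshold and each horse left out. The limma fits with and without the block and the DESeq2 and edgeR fits were also run on simulated counts. Those counts held no horse effect, unlike these data, and the ratio tests were not run on them.

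The 10 genes were given by name, and the lists by role were written from known functions. Genes named from a list are those called, at most 6 by fold change, with up to 3 more of lowest adjusted p where fewer than 2 were called, and 1 gene that the rule names is not reported here. Genes of like pattern are the 3 of highest correlation for the 3 genes with the largest change. The members and lists were chosen with earlier results of these data known. Gene names are as deposited. All 10 matched RefSeq's annotation of the TB-T2T assembly, which differs from the assembly of the counts, so no coordinates are printed, and sequences were not used here. Levels were not compared between genes, since transcript lengths were not used.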

Additional observations from a re-analysis of the deposited data

Results flagged for a closer look

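Single libraries stood far from the other 3 of their group in 4 of 74 groups of 4 examined (Dixon's criterion), where chance gives about 1 in 20. They were SKIL in the treated library of horse J (3701 normalized counts, the other treated libraries at 3343 to 3355), BMPR1B in the untreated library of horse W (185), BMPR2 in the treated library of horse L (6676) and TGFB1 in the treated library of horse J (5988). SKIL was called with horse J left out.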

How the results depend on the processing

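TGFBR3, SMAD3 and SKIL were called under all 17 alternatives, and TGFBR2 in all but the fit without horse W. The number of the 10 genes passing the test ran from 4 to 7, with DESeq2 giving 7. Without the replicate block 1709 genes were called in all, and the counts of the 10 genes did not change. The number of all genes called was 1116 at an adjusted p under 0.01 and 1080 (without horse W) to 2442 (without horse J) with 1 horse left out, with 1173 without horse D. The ratios of SMAD3 to SMAD2 (-2.01) and of SKIL to SKI (1.90) had p = 0.0286 (adjusted p = 0.0429) each in an exact permutation test of 4 against 4 libraries. That test ignores the pairing, and 0.0286 is the smallest p it allows. The exact paired sign-flip test of these horses gave p = 0.125, the smallest that 4 pairs allow.

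SMAD4 and SMAD7 had no stable direction. SMAD4 was at -0.31 under total scaling, -0.0023 and -0.033 with DESeq2 with and without the horse, -4.56e-04 with edgeR and -0.12 (without J) to 0.063 (without L) with 1 horse left out. SMAD7 was at -0.29 under total scaling, -0.06 without horse D, and -0.14 (without J) to 0.15 (without W) with 1 horse left out. BMPR2 was at -0.028 under total scaling. The cause was not tested.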

Other observations

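The nearest tested protein-coding genes on either side of the 4 called genes were looked up by order in RefSeq's annotation of the TB-T2T horse assembly, a rule set after the changes of these 4 genes were known. SMAD3 and SMAD6 lie next to each other with no coding gene between them, and both were lower after treatment, by 2.51 and 0.94 on the log2 scale. On the other side of SMAD3, AAGAB had -0.43 on the log2 scale and a limma-adjusted p of 0.0179. Near TGFBR3 they were C5H1orf146, beyond 4 untested coding genes, and CDC7, with log2 fold changes of -0.31 and 0.30, and neither passed the test (limma-adjusted p 0.473 and 0.251). Near TGFBR2, STT3B was higher by 0.54 (limma-adjusted p 0.0236), with 1 untested coding gene between them, and RBMS3 had -0.22 (0.190). Near SKIL, PRKCI and, beyond 2 untested coding genes, RPL22L1 had log2 fold changes of 0.65 and 0.29 and did not pass the test (limma-adjusted p 0.114 and 0.199). SMAD2, SMAD7 and SMAD4 lie in this order on a single chromosome, with 2 coding genes between the first pair and 14 between the second.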
